A study of Mus musculus with 39 samples.

Results

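The 9 genes described here move sterols into, through and out of the cells that line the small intestine, or sense them there. They are Npc1l1, Abcg5, Abcg8, Abca1, Abcg1, Soat2, Nr1h2, Nr1h3 and Mylip, taken by symbol from a list of names out of 56980 genes in the count tables. The list holds no rule on measured values, but it was chosen with earlier results of these data known. All 9 passed the filter on low counts and stood among the 14658 genes tested. RNA was sequenced from scrapings of the proximal small intestine of 39 female C57BL/6JRccHsd mice, weaned on day 21, fed 1 of 3 diets for 3 weeks and sampled in the fed state on day 42, with 13 mice per diet. The glucose diet held 32% of its energy as added glucose, the galactose diet held 16% as galactose beside 16% as glucose, and the lactose diet held 32% as lactose, the milk disaccharide of glucose and galactose. Starch (32%), fructose (3%), protein (20%) and fat (20%) were the same in all diets, so the galactose diet was a mixture and the glucose diet was the common reference. The labels give no genotype, drug or other treatment.

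The first 2 cm of duodenum had been cut away, and scraping collects mainly the epithelium but with other cell types mixed in. Sample titles are numbered 1 to 18 and 49 to 69, a split that the labels do not call a batch and that is used here to repeat the comparisons within each run. Each library held between 19685385 and 21350610 counts assigned to genes. All 7 enterocyte markers were expressed in the libraries, at a summed 12885 to 25640 CPM, counts scaled to a common library total, whereas 8 smooth muscle markers summed to 62.5 to 799.9 CPM. In the galactose group, 1 library (mouse 4) also carried pancreatic transcripts, with Pnliprp1 at 3097 CPM against at most 105 CPM in any other library. In all, 7 libraries, 2 on glucose, 3 on galactose and 2 on lactose, were high in the interferon-induced transcript Ifit3, above 100 CPM. In bulk tissue, fewer cells of a type and less RNA per cell cannot be told apart.

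Cholesterol and plant sterols enter the enterocyte from the gut lumen through NPC1L1, a brush border protein that is the target of the drug ezetimibe. Inside the cell, SOAT2 esterifies cholesterol for packing into chylomicrons, the ABCG5 and ABCG8 transporters pair to pump sterols back into the lumen, and ABCA1 passes cholesterol across the basolateral membrane to apolipoprotein A-I to form HDL. Oxysterols made from cholesterol activate the liver X receptors, LXR alpha (Nr1h3) and LXR beta (Nr1h2), and these nuclear receptors raise transcription of Abca1, Abcg1, Abcg5, Abcg8 and Mylip, whose product IDOL is a ubiquitin ligase that marks lipoprotein receptors for breakdown.

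Expressed per kilobase of exon, the scale on which genes can be compared with each other, Npc1l1 had the highest level of the 9, at 237 ± 76.7 CPM per kilobase (SD over 39 mice), followed by Abcg5 at 211 ± 33.3. These neighbours overlapped within their spread. Abcg8 followed at 137 ± 26.8 and Soat2 at 90.3 ± 16.7. Both LXR genes lay lower and near each other, with Nr1h2 at 25.8 ± 2.59 and Nr1h3 at 20.4 ± 3.01 CPM per kilobase. Abca1 stood at 5.51 ± 3.16, Mylip at 1.74 ± 0.71 and Abcg1 at 0.585 ± 0.186, so Abca1, Mylip and Abcg1 were much scarcer than the luminal carriers.

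The diets changed few of the 9 genes. For lactose against glucose 2 of 9 rose, Nr1h3 and Soat2, and none fell, against 15.6% of all tested genes called in either direction, 8.73% higher and 6.84% lower (edgeR quasi-likelihood test, Benjamini-Hochberg adjusted p below 0.05). For lactose against galactose 1 of 9 rose, Nr1h3, against 30.9% of all tested genes, 15.9% higher and 15% lower. For galactose against glucose edgeR called 0 of 9, against 4.07% of all tested genes, 1.21% higher and 2.87% lower. DESeq2 and limma voom also called 0, and each of the 3 tools gave 2 of 9 genes an unadjusted p below 0.05. Counts this small out of 9 are read gene by gene and not as a result for the group. The median log2 difference of the 9 genes was -0.05 for galactose against glucose, -0.02 for lactose against glucose and 0.16 for lactose against galactose, where the medians of all tested genes were 0.00, -0.03 and -0.02. The 3 comparisons share their groups of mice and are not independent of each other. In a test of any difference between diets only Nr1h3 (edgeR adjusted p = 0.000868) and Soat2 (edgeR adjusted p = 0.00444) of the 9 genes passed, where 30.3% of all tested genes did.

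**Figure D1:**
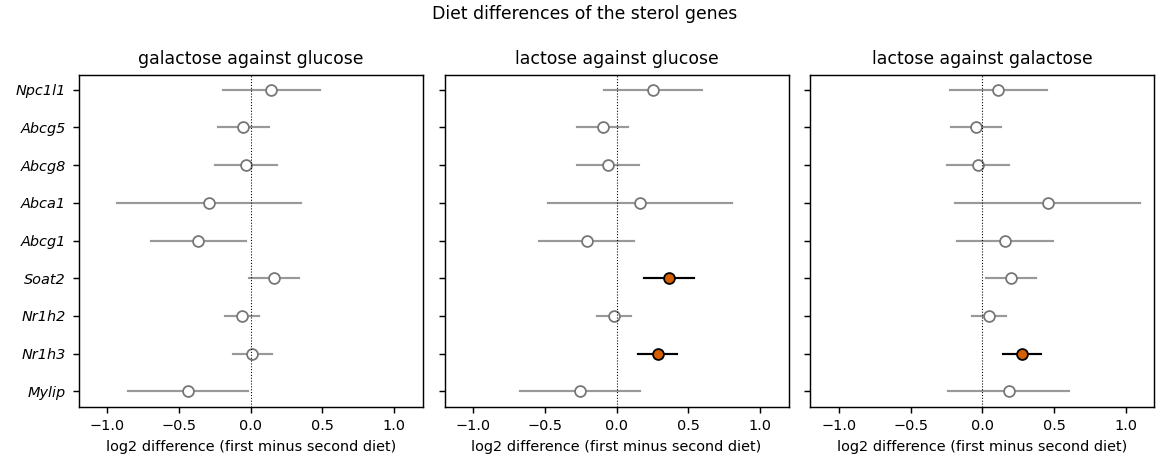
Log2 differences in expression of the 9 sterol genes between diets (points, first diet minus second) with their 95% intervals (lines), in 3 panels for the 3 comparisons of 13 mice against 13. Filled points passed edgeR's adjusted p of 0.05: Nr1h3 and Soat2 for lactose against glucose (0.29 and 0.36) and Nr1h3 for lactose against galactose (0.27). The widest intervals belong to Abca1.

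Nr1h3, the gene of LXR alpha, was higher on lactose than on either other diet. On glucose it ranged from 40.0 to 57.2 CPM with a median of 47.8 CPM, on galactose from 39.8 to 60.2 with a median of 47.4, and on lactose from 43.1 to 67.0 with a median of 58.8. The glucose and galactose mice covered nearly the same range, and 12 of 13 lactose mice were above the glucose mean and 12 of 13 above the galactose mean. Mouse 1 was the lowest on lactose, and the ranges of all 3 diets overlapped.

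Against glucose, Nr1h3 rose by 0.29 on the log2 scale on lactose (SE 0.07, 95% interval 0.15 to 0.42, edgeR adjusted p = 0.00274), a 1.22-fold difference between 58.2 ± 6.53 and 47.7 ± 5.29 CPM (SD, n = 13 each). Against galactose (48.1 ± 5.91 CPM) it rose by 0.27 (SE 0.07, edgeR adjusted p = 0.00155). Galactose against glucose gave 0.01, with a 95% interval of -0.12 to 0.15 and an edgeR adjusted p of 0.940. Of the 2515 exon bases of Nr1h3, 34 are shared with the annotated gene Gm13783 on the same strand, and reads there may not be separable. Within title numbers 1 to 18 alone, with 6 mice per diet, the difference from glucose was 0.21 (edgeR adjusted p = 0.518), and within title numbers 49 to 69, with 7 mice per diet, it was 0.35 (edgeR adjusted p = 0.00756). Scaling by library totals, which shifts the median of all tested genes to -0.13 for lactose against glucose and -0.16 for lactose against galactose, left Nr1h3 at 0.18 and 0.14 (edgeR adjusted p = 0.0175 and 0.0494).

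Nr1h2, the gene of LXR beta, ranged over all mice from 66.3 to 105 CPM. Its means were 88.1 ± 9.30 CPM on glucose, 84.3 ± 8.91 on galactose and 87.1 ± 8.08 on lactose (SD, n = 13 each), and its difference between lactose and glucose was -0.02 on the log2 scale, with a 95% interval of -0.14 to 0.10 (edgeR adjusted p = 0.868). None of its 3 comparisons passed, and its coefficient of variation over all mice, 10.1%, was the lowest of the 9 genes. The ratio of Nr1h3 to Nr1h2 CPM, which is not corrected for length, averaged 0.543 ± 0.048 on glucose, 0.574 ± 0.069 on galactose and 0.675 ± 0.113 on lactose. In the lactose group it ran from 0.462 to 0.930 and overlapped both other groups.

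**Figure D2:**
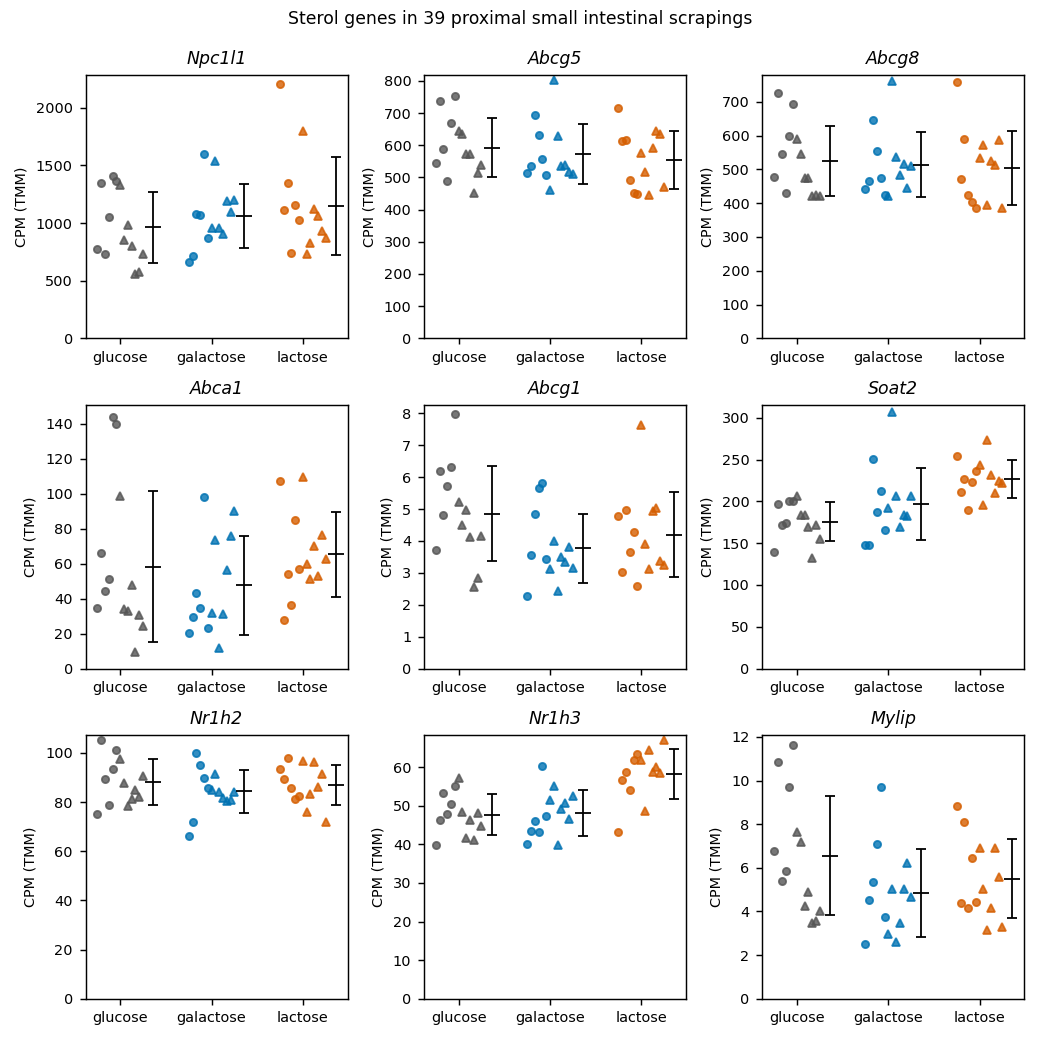
Expression of the 9 sterol genes (CPM after TMM scaling, linear axes from 0) in each of 39 mice, by diet, with circles for title numbers 1 to 18 and triangles for 49 to 69, and bars for the mean and SD of 13 mice. Nr1h3 and Soat2 sit higher on lactose (means of 58.2 and 226 CPM), the spread of Abca1 reaches from 9.41 to 144 CPM, and the ranges of the diets overlap for all 9 genes.

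Soat2, which esterifies cholesterol in the endoplasmic reticulum of enterocytes, was the other gene that rose on lactose. On glucose it ranged from 132 to 206 CPM with a median of 174, on galactose from 148 to 307 with a median of 187, and on lactose from 190.2 to 274 with a median of 224. All 13 lactose mice lay above the glucose mean, the galactose mice straddled both other groups, and galactose mouse 8 had the highest value of the study. The rise from 176 ± 23.2 to 226 ± 22.8 CPM (SD, n = 13 each) was 0.36 on the log2 scale (SE 0.09, 95% interval 0.19 to 0.54, edgeR adjusted p = 0.00337), or 1.29-fold.

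Lactose against galactose (197 ± 43.4 CPM) gave 0.20 for Soat2 and missed the threshold (95% interval 0.03 to 0.37, edgeR adjusted p = 0.0713), with 11 of 13 lactose mice above the galactose mean. It passed with limma voom (0.24, adjusted p = 0.0132) and without the 7 libraries high in Ifit3 (0.31, edgeR adjusted p = 0.00337). Galactose against glucose gave 0.16 (95% interval -0.01 to 0.34, edgeR adjusted p = 0.274). Within title numbers 1 to 18 the lactose and glucose mice differed by 0.32 (edgeR adjusted p = 0.407), and within 49 to 69 by 0.40 (edgeR adjusted p = 0.0224).

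Soat1, the esterifying enzyme that most other tissues use, was not called higher on lactose. Its difference between lactose and glucose was -0.28 on the log2 scale and missed the threshold (SE 0.10, edgeR adjusted p = 0.0615). It was at 17.6 ± 3.78 CPM on glucose, 19.5 ± 3.90 on galactose and 14.6 ± 2.03 on lactose, and it fell by 0.42 on the log2 scale for lactose against galactose (SE 0.10, edgeR adjusted p = 0.00198). The ratio of Soat2 to Soat1 CPM, again not corrected for length, averaged 10.6 ± 3.44 on glucose, 10.8 ± 4.23 on galactose and 15.9 ± 3.18 on lactose, with ranges that overlapped. Markers of some non-epithelial cells fell in the same comparison, in which 15% of all tested genes were called lower. Of the macrophage and dendritic markers 7 of 10 fell, with summed levels of 208 to 385 CPM on galactose and 155 to 293 on lactose, as did 8 of 8 smooth muscle, 5 of 7 fibroblast and 4 of 6 endothelial markers. By contrast, 2 of 5 B and plasma cell markers rose and 0 fell, where 15.9% of all tested genes were called higher. Of 6 T cell markers 0 were called. The part of any of these cells in the Soat1 difference was not tested.

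Npc1l1, the sterol importer, varied widely among mice on every diet. It ranged from 559.8 to 1411 CPM on glucose with a median of 855, from 661 to 1602 on galactose with a median of 1069.9, and from 735 to 2205 on lactose with a median of 1057. Lactose mouse 1 was far above the other lactose mice, the next of which was at 1797 CPM, and all groups overlapped. The means of 963 ± 309, 1064 ± 277 and 1148 ± 425 CPM gave log2 differences of 0.14 for galactose against glucose (95% interval -0.20 to 0.48) and 0.25 for lactose against glucose (-0.09 to 0.59), and no comparison passed (edgeR adjusted p between 0.300 and 0.670).

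Abcg5 and Abcg8, which encode the partners of the luminal sterol pump, differed by less between mice than Npc1l1 did. Abcg5 lay between 444 and 802 CPM and Abcg8 between 385 and 762 CPM over all 39 mice, 1.81-fold and 1.98-fold from lowest to highest, where Npc1l1 spanned 3.94-fold. Their means on glucose, galactose and lactose were 593 ± 91.0, 572 ± 93.7 and 555 ± 89.3 CPM for Abcg5 and 525 ± 103, 514 ± 96.9 and 503 ± 109 CPM for Abcg8. No comparison passed, and the intervals bound the differences: for lactose against glucose Abcg5 differed by -0.10 (95% interval -0.27 to 0.08) and Abcg8 by -0.06 (-0.28 to 0.15) on the log2 scale. Galactose mouse 8 was highest for both genes.

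Both genes lie head to head on chromosome 17 and are read in opposite directions from a shared stretch of promoter. It is shown here because the pair varied together more closely than any other pair of the 9 genes. RefSeq starts on GRCm38.p6 leave 109 bases between them, chr17:84683012-84683120, printed on the plus strand, in the direction of Abcg8, with GATA boxes in capitals. The expression files were made on another build, GRCm39, and none of their values rest on these coordinates.
Abcg5 to Abcg8: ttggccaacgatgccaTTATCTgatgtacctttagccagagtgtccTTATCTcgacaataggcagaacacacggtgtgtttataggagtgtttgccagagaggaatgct
Both capital stretches are AGATAA read on the other strand. AGATAA, searched on both strands, occurs in 3.98% of the 109-base windows before the 32851 RefSeq starts in the table, and in 0.186% of them at least 2 times. A letter match describes the sequence and does not show that a GATA factor binds there. Gata4, a transcription factor of the proximal intestine, was at 195 ± 18.7 CPM on glucose, 180.1 ± 21.2 on galactose and 178 ± 20.6 on lactose, and none of its comparisons passed. In the GENCODE annotation 82 exon bases belong to both genes on opposite strands, 3.02% of Abcg5 and 2.19% of Abcg8, and reads there cannot be assigned without a known strand setting.

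Abca1, the basolateral exporter, was the most variable of the 9 genes. It ranged from 9.41 to 144 CPM on glucose with a median of 44.6, from 11.9 to 98.0 on galactose with a median of 34.4, and from 27.7 to 110 on lactose with a median of 59.9. Glucose mice held both the lowest and the highest value, 15.3-fold apart, and the ranges of the 3 diets overlapped. Its coefficient of variation over all mice was 57.4%. The means of 58.3 ± 43.0, 47.7 ± 28.2 and 65.4 ± 24.3 CPM gave -0.29 for galactose against glucose (95% interval -0.93 to 0.35, edgeR adjusted p = 0.642), 0.17 for lactose against glucose (-0.48 to 0.81, 0.755) and 0.46 for lactose against galactose (-0.19 to 1.10, 0.284).

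The galactose difference of Abca1 turned direction between the series of title numbers, at -0.94 within 1 to 18 and 0.42 within 49 to 69. Its glucose mice averaged 80.0 ± 49.1 CPM in the first series (n = 6) and 39.7 ± 28.5 in the second (n = 7), with overlapping ranges. The test of that change gave 1.36 on the log2 scale with an unadjusted p of 0.0332 in edgeR and an adjusted p of 0.960. Over the 27 such tests of the 9 genes in 3 comparisons edgeR called 0, with 2 at an unadjusted p below 0.05, the other being Abcg1 for lactose against glucose (0.72, unadjusted p = 0.0244). No gene of all 14658 tested passed this test in any comparison, with 634, 894 and 902 at an unadjusted p below 0.05.

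Abca1 is a textbook LXR target, and the 250 bases before its RefSeq start are printed because they hold the stretch that resembles the LXR element. They are chr4:53159896-53160145 of GRCm38.p6, read on the minus strand towards the gene, with the match in capitals.
Abca1: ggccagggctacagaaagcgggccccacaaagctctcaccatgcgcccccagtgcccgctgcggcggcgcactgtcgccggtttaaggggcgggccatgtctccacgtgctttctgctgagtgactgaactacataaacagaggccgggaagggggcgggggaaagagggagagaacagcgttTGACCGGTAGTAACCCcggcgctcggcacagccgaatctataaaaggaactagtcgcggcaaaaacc
The capitals are, read on the other strand, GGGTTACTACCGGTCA, which differs by 3 bases from AGGTCA repeated in the same direction with 4 free bases between, and begins 67 bases before the start. With up to 3 differences on either strand, 18.5% of the 250-base windows before all RefSeq starts hold such a match. The limit of 3 was set after this sequence had been seen, and with 2 allowed no match was found here. The table held windows for 7 of the 9 genes, all but Abcg1 and Soat2, and the letters TCACNCCAC, a form of the sterol regulatory element found in 1.24% of all windows of 300 bases, were in none of the 7.

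Abcg1, a cholesterol exporter best known from macrophages, and Mylip, the gene of IDOL, were the scarcest per kilobase. Abcg1 ranged from 2.55 to 7.99 CPM on glucose with a median of 4.82, from 2.28 to 5.81 on galactose with a median of 3.50, and from 2.58 to 7.65 on lactose with a median of 3.91. Mylip ranged from 3.45 to 11.6 CPM on glucose with a median of 5.86, from 2.49 to 9.72 on galactose with a median of 4.67, and from 3.16 to 8.85 on lactose with a median of 5.03. For each gene 11 of 13 galactose mice lay below the glucose mean, though the groups overlapped.

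Between galactose and glucose, Abcg1 differed by -0.37 on the log2 scale (SE 0.16, 95% interval -0.70 to -0.04) and Mylip by -0.44 (SE 0.21, -0.86 to -0.02). These are the 2 genes with an unadjusted p below 0.05 in edgeR (0.0311 and 0.0411), and neither passed the adjusted threshold (0.193 and 0.220). Lactose against glucose gave -0.21 for Abcg1 (-0.54 to 0.12, edgeR adjusted p = 0.390) and -0.25 for Mylip (-0.67 to 0.17, 0.414). Libraries held 50 to 160 counts of Abcg1 and 54 to 233 of Mylip, which limits the precision of single values.

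Mice on the same diet differed from each other in most of these genes together. After diet means were removed, 30 of the 36 pairs of genes were positively correlated over the 39 mice and none negatively (Pearson's r, adjusted p below 0.05 over 36 pairs, 100000 permutations within diets). Abcg5 and Abcg8 were the closest pair, with r = 0.92 and Spearman's rho = 0.91 (permutation p = 1e-05 for each, the smallest that 100000 permutations can give, adjusted 5.14e-05 and 4.5e-05). Their r was 0.96 within title numbers 1 to 18, 0.88 within 49 to 69 and 0.90 without the 2 mice farthest from the median of Abcg5. Next came Abcg1 with Mylip (r = 0.80, rho = 0.79), Npc1l1 with Mylip (0.76 and 0.76) and Npc1l1 with Abca1 (0.74 and 0.75), each with the same smallest permutation p. The points of all pairs share the same libraries, depth and scrapings. The share of correlated pairs among all tested genes was not computed, so the 30 of 36 is not read as a trait of these genes.

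Nr1h3 was the exception, as it supplied all 6 pairs that did not pass. Its r was -0.01 with Abcg5 and -0.06 with Abcg8 (permutation p = 0.964 and 0.741), 0.29 with Npc1l1, 0.29 with Abcg1, 0.29 with Nr1h2 and 0.23 with Mylip. It was correlated with Abca1 (r = 0.53, rho = 0.55, adjusted permutation p = 0.000795) and with Soat2 (r = 0.48, rho = 0.48, adjusted permutation p = 0.00402). Without the 2 mice farthest from the median of Abca1, the r of Nr1h3 with Abca1 was 0.45. Without the 2 mice farthest from the median of Npc1l1, the r of Nr1h3 with Npc1l1 was 0.55.

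**Figure D3:**
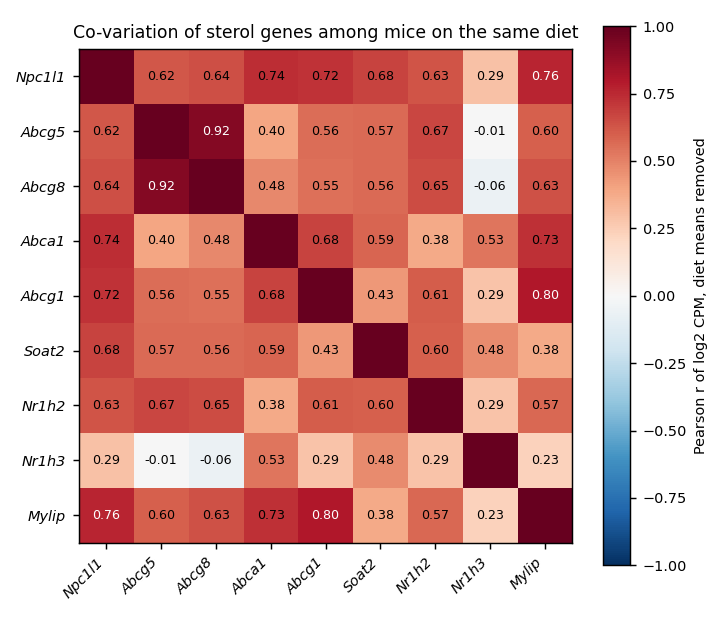
Pearson's r between the log2 CPM of each pair of the 9 sterol genes over 39 mice, with diet means removed (colour scale from -1 to 1, value printed in each cell). Abcg5 and Abcg8 reach 0.92, and the row of Nr1h3 is palest, at -0.01 and -0.06 with that pair.

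Marker genes that are graded along the intestine also varied among the scrapings. A regional score was formed from 5 tested distal markers (Slc10a2, Slc51b, Cubn, Muc3 and Gata5) minus 6 tested proximal markers (Slc40a1, Cybrd1, Slc46a1, Fabp1, Onecut2 and Pdx1), while the ileal gene Fabp6 and the duodenal gene Trpv6 fell below the filter. Among mice on the same diet all 9 genes were correlated with it, Abca1 most closely (r = 0.87, rho = 0.87, adjusted permutation p = 9e-05), then Npc1l1 (r = 0.79, rho = 0.76, 9e-05) and Soat2 (r = 0.70, rho = 0.69, 9e-05), and Nr1h3 least (r = 0.45, rho = 0.47, 0.0136). Within title numbers 1 to 18 and 49 to 69 the r of Abca1 was 0.88 and 0.84, and without the 2 mice farthest from the median of the score it was 0.86. The r of Nr1h2 with the score differed most between the title runs, at 0.68 within 1 to 18 and 0.24 within 49 to 69. In this family of 27 relations, 9 genes against 3 scores, 13 passed with Pearson's r, and 11 with both r and rho. The share of all tested genes related to the scores was not computed.

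**Figure D4:**
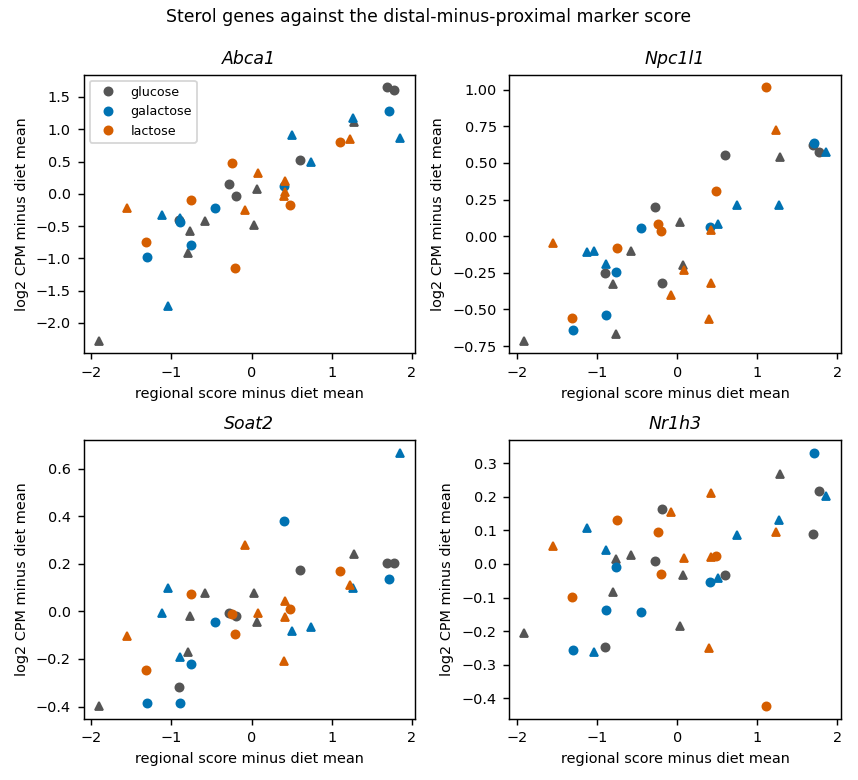
Log2 CPM of Abca1, Npc1l1, Soat2 and Nr1h3 against the regional score (distal minus proximal marker genes), both with diet means removed, for 39 mice coloured by diet, with circles for title numbers 1 to 18 and triangles for 49 to 69. Abca1 follows the score most closely (r = 0.87) and Nr1h3 least (r = 0.45).

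The score itself averaged -0.59 ± 1.09 on glucose, 0.05 ± 1.13 on galactose and 0.54 ± 0.83 on lactose, with overlapping ranges, and some of its markers were themselves called between diets. With the score as a covariate the calls changed. For galactose against glucose Abca1 (-0.65, edgeR adjusted p = 0.0174), Abcg1 (-0.50, 0.0267) and Mylip (-0.64, 0.0221) fell, and for lactose against glucose Abcg1 (-0.47, 0.0363) and Mylip (-0.57, 0.0367) fell, Nr1h3 rose by 0.20 (0.0418) and Soat2 missed the threshold at 0.20 (0.0662). With a score from the markers called in no comparison (Cubn, Muc3 and Gata5 minus Slc40a1, Cybrd1 and Pdx1), an alternative chosen after seeing the data, no gene of the 9 passed for galactose against glucose, and Soat2 and Nr1h3 kept their calls for lactose against glucose (0.30 and 0.25). Since the score and its markers differ between the diets too, diet and position along the gut cannot be told apart in these fits.

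Marker scores of other cell types also had different means on the 3 diets. A score of smooth muscle, fibroblast, endothelial and macrophage markers averaged 0.01 ± 0.62 on glucose, 0.55 ± 0.51 on galactose and -0.56 ± 0.64 on lactose. Nr1h3 was not detectably related to it among mice on the same diet (r = -0.13, rho = -0.08, permutation p = 0.442). Npc1l1 (r = 0.38, rho = 0.40) and Abcg1 (r = 0.38, rho = 0.35) were correlated with it, each with an adjusted permutation p of 0.0427 for r. Nr1h2 was correlated with the macrophage score (r = 0.58, rho = 0.54, adjusted permutation p = 0.000424), as was Abcg1 (r = 0.38, rho = 0.32, 0.0427). By rho Abcg1 missed the threshold for both scores (adjusted permutation p = 0.0685 and 0.103). With the non-epithelial score as a covariate Nr1h3 stood at 0.24 for lactose against galactose and just missed the threshold (edgeR adjusted p = 0.0505), and at 0.27 for lactose against glucose (0.0115).

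The genes whose levels among mice on the same diet were most like those of the 9 were ranked over 11227 genes by Pearson's r over 39 mice. Abca1 was most like Slc5a12 (r = 0.91), Slc23a1 (0.90) and P2ry2 (0.90), and Npc1l1 was most like App (0.92), Zfp703 (0.91) and Clca4b (0.91). Abcg5 and Abcg8 each had the other at the top of the list, followed by Ppm1n (0.80) and Retreg3 (0.78) for Abcg5 and by Arrdc2 (0.85) and Ezh1 (0.83) for Abcg8. Abcg1 was most like Mylip (0.80), Foxo6 (0.78) and Amn (0.76), and Mylip most like Sh3bp2 (0.85), Map3k6 (0.84) and Cox6b2 (0.84). Soat2 followed Gpat3 (0.87), Optn (0.87) and Mep1b (0.83), Nr1h2 followed Mkrn1 (0.85), Sap30l (0.85) and Prmt2 (0.84), and Nr1h3 followed Slc7a7 (0.82), Fbxo4 (0.81) and Acy3 (0.79).

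Among 9 other tested LXR targets edgeR called 0 for lactose against glucose (median log2 difference -0.04, 1 at an unadjusted p below 0.05), where 15.6% of all tested genes were called, and DESeq2 and limma voom called 0 as well. For lactose against galactose, where 30.9% of all genes were called, 1 rose and 1 fell, and for galactose against glucose, where 4.07% were, 1 fell. Srebf1, the gene of the lipogenic factor SREBP-1, fell by 0.62 for galactose against glucose (SE 0.18, edgeR adjusted p = 0.0430), from 253 ± 104 to 165 ± 41.7 CPM, and the call ended without galactose mouse 4 (adjusted p = 0.0518). Scd1, a fatty acid desaturase, was higher for lactose against galactose by 1.91 (edgeR adjusted p = 0.00580), with 8 of 13 mice above the galactose mean, and stood at 0.64 with limma voom (adjusted p = 0.319). Smpdl3a, a phosphodiesterase, fell by 0.37 (edgeR adjusted p = 0.00827), with all 13 lactose mice below the galactose mean.

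Several enzymes that make or clear oxysterols, the LXR ligands, rose on lactose. Of 5 tested, edgeR called 3 higher for lactose against glucose, where 8.73% of all tested genes were called higher, and 0 lower. They were Cyp3a11, a sterol and drug hydroxylase, by 0.61 (SE 0.16, edgeR adjusted p = 0.00687), Cyp27a1, which makes 27-hydroxycholesterol, by 0.59 (SE 0.17, 0.0164) and Sult2b1, which sulphates sterols, by 0.35 (SE 0.11, 0.0251). Cyp39a1, an oxysterol hydroxylase, differed by -0.62 in the same comparison (SE 0.23, edgeR adjusted p = 0.0578), with 11 of 13 lactose mice below the glucose mean, and DESeq2 called 1 of the 5 lower. Cyp27a1 went from 70.2 ± 25.5 to 106 ± 36.3 CPM, but within title numbers 1 to 18 it stood at -0.0040, and Sult2b1 missed the threshold without the libraries high in Ifit3 (adjusted p = 0.130). Against galactose these 3 rose on lactose by 0.48, 0.71 and 0.35, and Cyp39a1 fell by 0.89 (edgeR adjusted p = 0.00279). In that comparison 15.9% of all tested genes were called higher and 15% lower. For galactose against glucose edgeR, DESeq2 and limma voom each called 0 of 5, with 0 at an unadjusted p below 0.05. There edgeR called 4.07% of all tested genes. Cyp39a1, at 0.27, had the smallest p of the 5 (edgeR adjusted 0.516).

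Of 20 partners in sterol uptake and trafficking, 1 rose and 1 fell for galactose against glucose, 5 rose and 2 fell for lactose against glucose, and 6 rose and 2 fell for lactose against galactose, beside 4.07%, 15.6% and 30.9% of all tested genes called in the 3 comparisons. With limma voom 5 were higher and 0 lower for lactose against glucose. Cd36, a scavenger receptor for fatty acids and lipoproteins, averaged 201 ± 68.5 CPM on glucose, 113 ± 35.2 on galactose and 378 ± 263 on lactose. It was higher in all 13 lactose mice than the galactose mean, by 1.74 on the log2 scale (SE 0.27, edgeR adjusted p = 6.12e-06). Cdc42 and Rab11a, which take part in the vesicle cycling of NPC1L1, rose by 0.17 (edgeR adjusted p = 0.00267) and 0.21 (0.00747) for lactose against glucose, calls that ended with scaling by library totals (0.07 and 0.10). Flot1, a raft protein of that cycling, fell by 0.26 for galactose against glucose (0.0261) and rose by 0.36 for lactose against galactose (0.000148). By contrast, Flot2 and Gramd1a fell on lactose, by 0.35 (edgeR adjusted p = 0.0357) and 0.32 (0.0244) against glucose. Against galactose they fell by 0.48 (edgeR adjusted p = 0.00196) and 0.46 (0.000468). Scarb1, the HDL receptor, passed in no comparison.

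Of 12 genes of esterification and chylomicron packing, none rose and 2 fell for galactose against glucose, 3 rose and none fell for lactose against glucose, and 4 rose and 2 fell for lactose against galactose, beside the same shares of all tested genes. With limma voom 1 was higher for lactose against glucose. Ces1f, a carboxylesterase, was at 379 ± 82.9 CPM on glucose, 237 ± 85.8 on galactose and 510 ± 89.5 on lactose, and it fell by 0.68 for galactose against glucose (SE 0.15, edgeR adjusted p = 0.00484) and rose by 1.11 for lactose against galactose (SE 0.15, 5.76e-07). Plin2, the coat protein of lipid droplets, fell by 0.49 for galactose against glucose (0.00716). Dgat1, which makes triglyceride, and Mttp, which loads lipid onto apolipoprotein B, rose by 0.20 each for lactose against glucose (edgeR adjusted p = 0.0139 and 0.0485), and both calls ended with scaling by library totals (0.10 and 0.09). Apob, the gene of apolipoprotein B, was lower for lactose against galactose, at -0.25 on the log2 scale (SE 0.09, edgeR adjusted p = 0.0242). Its means were 3862 ± 618 CPM on galactose and 3248 ± 457 on lactose, with overlapping ranges. Apoa1 and Apoa4, apolipoproteins of HDL and chylomicrons, passed in no comparison.

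Targets and regulators of SREBP-2, the factor that responds to low cell cholesterol, included calls in both directions on lactose. For galactose against glucose, where 4.07% of all tested genes were called, edgeR called 0 of 18, with 2 at an unadjusted p below 0.05. DESeq2 called 0 and limma voom 1, which was higher. Hmgcs1, an early enzyme of cholesterol synthesis, had the smallest p there, with a log2 difference of 0.24 (edgeR adjusted p = 0.191). For lactose against glucose 3 targets rose and 1 regulator, Scap, fell, where 15.6% of all tested genes were called. DESeq2 and limma voom each called 3 higher and 0 lower. Mvk, the mevalonate kinase, rose by 0.47 (SE 0.16, edgeR adjusted p = 0.0406), from 6.94 ± 2.33 to 9.65 ± 3.23 CPM, with 11 of 13 lactose mice above the glucose mean. Nsdhl and Sc5d, enzymes of the later steps of synthesis, rose by 0.23 (0.0351) and 0.19 (0.0482), and Scap, which escorts SREBP-2 from the endoplasmic reticulum, fell by 0.16 (0.0484). All 4 lay close to the threshold and missed it without the libraries high in Ifit3 (Mvk 0.47, adjusted p = 0.0921; Scap -0.14, 0.124), and with library totals Mvk, Nsdhl and Sc5d stood at 0.36 (0.116), 0.12 (0.259) and 0.0840 (0.244). Against galactose 1 rose (Mvk) and 3 fell (Srebf2, Sqle and Mvd), where 30.9% of all tested genes were called. Of the 2 receptors tested that IDOL marks for breakdown, Vldlr rose for lactose against glucose by 0.88 (SE 0.25, edgeR adjusted p = 0.0138) and for lactose against galactose by 1.24 (0.000284), from 1.74 ± 0.31 and 1.36 ± 0.57 to 3.21 ± 1.99 CPM. With limma voom its difference from glucose was 0.54 (adjusted p = 0.135), and Lrp8 passed in no comparison.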

How the data were processed

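RNA was counted in 39 libraries, 1 per mouse. The authors deposited raw counts per gene for 56980 Ensembl identifiers, made with FastQC, STAR and HTSeq on GRCm39 per the submitters' processing notes. Program versions, the strand setting and the annotation release are not given in the sources used here. The 5 summary lines of each file were left out of the totals; they held 10.1% to 15.7% of reads. Symbols were matched for 52073 identifiers, and exon lengths and overlaps came from GENCODE M21, an annotation of the earlier build GRCm38.

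Genes were filtered with filterByExpr by diet, scaled by TMM and tested with edgeR 4.0.16 in R 4.3.3 (two-sided quasi-likelihood F tests, 1 mean per diet, 14658 genes, Benjamini-Hochberg adjusted p below 0.05 over all tested genes of a comparison). Standard errors and 95% intervals come from that fit. CPM use TMM factors, and log2 CPM a prior count of 2. The number of mice showing a direction counts mice of the first diet beyond the mean of the second. Scores are means of scaled log2 CPM over the tested markers of a list. Correlations used log2 CPM minus diet means and 100000 permutations within diets. Title numbers run from 1 to 18 and from 49 to 69; this split is not a labelled batch, and the labels name no cages or litters. The fits were run on simulated counts drawn from the fitted means and spread. Those counts held no title runs, regional differences or mixed cell types, so they cannot show how such differences affect the calls.

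The 9 genes, the gene lists and the tests were chosen with earlier results of these data known. Some genes of the lists are not reported here, and the counts leave them out. All 9 are named in each comparison. Of every other list, up to 4 called genes per comparison were picked by smallest p, or the 1 of smallest p where none was called. Most of these are given, and Flot2, Apob and some other genes are named outside that rule. For each of the 9, the 3 genes of highest r with mean log2 CPM of at least 1 are named. Alternatives were DESeq2 1.42.0, limma voom 3.58.1 with quality weights, RLE factors, library totals, no filter or a CPM of at least 1 in 13 libraries, title run or triplet as a term, each title run alone, the 2 compared diets alone, leaving out galactose mouse 4 or the 7 libraries high in Ifit3, and the non-epithelial or regional score as a covariate. Promoter sequences are RefSeq's, GRCm38.p6.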

Additional observations from a re-analysis of the deposited data

How the results depend on the processing

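Over 16 alternative settings the 27 differences of the 9 genes gave 432 values: 392 kept direction and side of the threshold, 10 newly passed, 5 no longer passed and 25 turned direction. No difference that passed in the main test turned direction. The cause was not tested for any of these, and the fits on title numbers 1 to 18 or 49 to 69 hold 6 or 7 mice per diet.

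With the regional score as a covariate galactose against glucose gave 3 of the 9 genes called in place of 0. For lactose against glucose title numbers 1 to 18 gave 0 of 9 in place of 2. The number for lactose against galactose was 2 with limma voom, with the triplet block and without the libraries high in Ifit3, 0 with title numbers 1 to 18 and with the non-epithelial score, and 3 with the regional score from uncalled markers, in place of 1.

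Of all tested genes, galactose against glucose called 597, and 1247 with limma voom, 908 with the triplet block, 72 and 179 within title numbers 1 to 18 and 49 to 69, and 276 with the non-epithelial score. Lactose against glucose called 2281, 1279 higher and 1002 lower, and 3527 with library totals, 623 higher and 2904 lower, 18 within 1 to 18 and 1194 with the regional score. Lactose against galactose called 4532, 2328 higher and 2204 lower, and 950 within 1 to 18, 2932 within 49 to 69, 2290 with the non-epithelial score, and 1064 higher and 4957 lower with library totals. With library totals galactose against glucose gave 315 higher and 286 lower, against 177 and 420.

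The differences that turned direction, none past the threshold, were as follows. For galactose against glucose title numbers 1 to 18 gave -0.14 for Npc1l1 and -0.0488 for Nr1h3, 49 to 69 gave 0.0214 for Abcg5, 0.13 for Abcg8 and 0.42 for Abca1, library totals gave 0.0016 for Abcg8, the regional score gave -0.0518 for Npc1l1 and -0.0383 for Nr1h3, and the score from uncalled markers gave -0.0169 for Nr1h3. For lactose against glucose the regional score gave -0.10 for Npc1l1 and -0.36 for Abca1, 49 to 69 gave 0.0566 for Abcg8 and 0.13 for Abcg1, 1 to 18 gave -0.38 for Abca1, and the non-epithelial score gave 0.0197 for Nr1h2. For lactose against galactose library totals gave -0.0153 for Npc1l1 and -0.0868 for Nr1h2, 49 to 69 gave -0.10 for Npc1l1, the regional score gave -0.0510 for Npc1l1, and 1 to 18 gave 0.0064 for Abcg8 and -0.14 for Abcg1. Without the libraries high in Ifit3, Abcg5 stood at 0.0736 and Abcg8 at 0.0936, and with the non-epithelial score at 0.0122 and 0.0053.

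Of 48 calls in other lists picked by smallest p, 11 held under every one of 13 settings, and 44 kept direction in all settings. The 13 were other tools, scalings, filters or covariates, and leaving out galactose mouse 4 or the libraries high in Ifit3. Abcg1 and Mylip had the lowest counts of the 9 genes.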

Other observations

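Of 9 partners and coregulators of the LXRs tested, edgeR called 1 higher for galactose against glucose and 1 higher for lactose against glucose. It called 3 lower for lactose against galactose. Of all tested genes, 4.07%, 15.6% and 30.9% were called in these 3 comparisons. Nrip1, a corepressor, rose by 0.33 on galactose against glucose (SE 0.09, edgeR adjusted p = 0.0227), with all 13 mice above the glucose mean, and fell by 0.25 for lactose against galactose (0.0286). Rxra, the retinoid X receptor that pairs with the LXRs, rose by 0.15 for lactose against glucose (0.0299), a call that ended with scaling by library totals (0.05, 0.431). Ncoa1 and Ncoa3, coactivators, fell by 0.30 (0.00139) and 0.22 (0.00848) for lactose against galactose. For lactose against galactose the non-epithelial score as a covariate ended the calls of Ncoa3 and Nrip1 (-0.14 and -0.12).

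Among 11 regulators of sterol carriers edgeR called 0 for galactose against glucose, with 3 at an unadjusted p below 0.05. DESeq2 called 1 there and limma voom 3. With edgeR 1 was lower for lactose against glucose, and 2 were higher and 1 lower for lactose against galactose. The shares of all tested genes called by edgeR in the 3 comparisons were 4.07%, 15.6% and 30.9%. Ppard, a fatty acid sensor, averaged 138 ± 30.0 CPM on glucose, 173 ± 24.6 on galactose and 94.7 ± 23.7 on lactose (SD, n = 13 each), and it fell by 0.54 for lactose against glucose (SE 0.12, edgeR adjusted p = 0.00126) and by 0.87 for lactose against galactose (SE 0.12, 3.98e-07), with all 13 lactose mice below either mean. Within title numbers 1 to 18 its difference between lactose and glucose was -0.13 (edgeR adjusted p = 0.709). Ppara, a related fatty acid sensor, rose by 0.73 for lactose against galactose (SE 0.15, 0.000394), from 33.1 ± 8.56 to 54.8 ± 16.1 CPM. Nr1h4, the bile acid receptor FXR, rose by 0.48 for lactose against galactose (SE 0.16, 0.0210) and missed the threshold with library totals (0.34, 0.0935).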
